A study of Mus musculus with 18 samples.

Results

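The proteasome genes were followed through the RNA-Seq profiles of sorted mouse motor neurons (MNs). Every gene whose symbol is Psma, Psmb, Psmc, Psmd, Psme, Psmf or Psmg with a number was taken, without regard to its level. This rule found 48 genes among the 23305 gene symbols present in all 5 deposited tables, and it left out no such symbol of the RefSeq gene list. They comprise 14 constitutive subunits of the 20S core, 3 immunoproteasome subunits (Psmb8, Psmb9, Psmb10), the tissue-restricted core subunits Psma8 and Psmb11, 17 subunits of the 19S cap, 7 assembly chaperones, 4 activators and the inhibitor Psmf1.

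The study compared MNs between embryonic and postnatal stages, between cord regions, and between control embryos and embryos lacking Hoxc8 in MNs, using 18 samples. At E12.5, 6 control samples, labelled wild type, and 3 Hoxc8 mutant samples were taken from brachial cord, and the cells were sorted by the Mnx1-GFP transgene. For the comparison with mutants, the paper gives homozygous floxed Hoxc8 as the control genotype. It also names spinal segments for that comparison that only partly overlap those of the stage comparison. The mutants carried floxed Hoxc8 alleles removed by Olig2-Cre, which acts in MN progenitors and is therefore not limited to MNs. At P8, 3 brachial, 3 thoracic and 3 lumbar samples came from Chat-IRES-Cre mice with the Ai9 reporter, which marks with tdTomato every cell whose history includes Chat expression. Strain and sex were not used here.

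The deposited tables give 1 pooled level per gene, the base mean, which is the mean over all samples of a table of the read counts divided by each library's size factor. The E12.5 level below is that of the table of control and mutant embryos, the stage level is that of the table holding E12.5 and P8 brachial samples together, and the P8 level is that of the regional tables. The base means of the 3 regional tables were identical for every gene, so they form 1 profile over 3 regions and carry no difference between regions. Values of single samples are not in these tables. No level therefore has an SD, and no difference below was tested. A gene was counted as higher in one profile where the fold reached 2.

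The proteasome degrades proteins tagged with ubiquitin. Its 20S core is a barrel of outer alpha rings and inner beta rings, and the beta rings hold the active sites, while the 19S cap binds, unfolds and feeds in the substrate. In cells exposed to interferon and in immune cells, Psmb8, Psmb9 and Psmb10 replace the constitutive Psmb5, Psmb6 and Psmb7 in newly built cores, which changes the peptides cut for antigen presentation. Neurons depend on the constitutive form for the turnover of synaptic and axonal proteins.

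The promoters of 7 members are shown as examples: the constitutive catalytic subunits Psmb5 and Psmb6, the inducible Psmb8 and Psmb9, the 19S ATPases Psmc1 and Psmc6, and the activator Psme4. Those of Psmb7 and Psmb10 are not printed. Each runs from 250 bases before to 10 bases after the RefSeq start on GRCm38.p6, 5′ to 3′ on the gene's own strand. Capitals mark matches to TGACNNNGC, the core of the antioxidant response element, to CCGGAAG, an Ets core, or to GAAANNGAA, of the interferon stimulated response element, on either strand.
Psmb5 (chr14:54617986-54618245, minus strand): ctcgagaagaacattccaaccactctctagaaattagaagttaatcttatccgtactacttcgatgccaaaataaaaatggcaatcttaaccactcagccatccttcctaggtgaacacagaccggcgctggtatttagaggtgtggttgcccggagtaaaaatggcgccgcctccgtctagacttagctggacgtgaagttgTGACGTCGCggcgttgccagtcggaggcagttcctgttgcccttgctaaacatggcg
Psmb6 (chr11:70525107-70525366, plus strand): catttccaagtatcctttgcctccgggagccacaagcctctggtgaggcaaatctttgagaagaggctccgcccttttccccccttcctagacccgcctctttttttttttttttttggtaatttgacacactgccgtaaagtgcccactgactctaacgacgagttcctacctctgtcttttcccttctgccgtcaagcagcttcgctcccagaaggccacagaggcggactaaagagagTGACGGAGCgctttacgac
Psmc1 (chr12:100109952-100110211, plus strand): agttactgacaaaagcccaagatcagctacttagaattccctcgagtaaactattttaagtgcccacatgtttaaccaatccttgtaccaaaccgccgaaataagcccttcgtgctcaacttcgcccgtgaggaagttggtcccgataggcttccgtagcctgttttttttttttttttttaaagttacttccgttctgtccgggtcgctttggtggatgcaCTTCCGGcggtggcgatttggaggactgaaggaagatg
Psmc6 (chr14:45329574-45329833, plus strand): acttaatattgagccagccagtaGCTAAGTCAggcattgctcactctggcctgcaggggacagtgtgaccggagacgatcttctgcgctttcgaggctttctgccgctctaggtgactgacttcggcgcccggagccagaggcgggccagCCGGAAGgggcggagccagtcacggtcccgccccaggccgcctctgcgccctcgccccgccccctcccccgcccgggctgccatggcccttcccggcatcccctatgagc
Psme4 (chr11:30771525-30771784, plus strand): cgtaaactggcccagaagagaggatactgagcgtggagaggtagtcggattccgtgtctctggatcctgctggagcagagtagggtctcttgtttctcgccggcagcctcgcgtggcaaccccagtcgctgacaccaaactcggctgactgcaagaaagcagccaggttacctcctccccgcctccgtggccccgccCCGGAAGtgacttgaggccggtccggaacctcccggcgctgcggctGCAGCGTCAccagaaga
Psmb8 (chr17:34197945-34198204, plus strand): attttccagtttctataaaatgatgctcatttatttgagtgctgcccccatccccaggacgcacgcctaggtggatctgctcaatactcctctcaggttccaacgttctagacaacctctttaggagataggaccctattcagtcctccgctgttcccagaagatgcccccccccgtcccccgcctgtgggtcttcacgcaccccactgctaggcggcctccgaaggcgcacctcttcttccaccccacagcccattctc
Psmb9 (chr17:34187321-34187580, minus strand): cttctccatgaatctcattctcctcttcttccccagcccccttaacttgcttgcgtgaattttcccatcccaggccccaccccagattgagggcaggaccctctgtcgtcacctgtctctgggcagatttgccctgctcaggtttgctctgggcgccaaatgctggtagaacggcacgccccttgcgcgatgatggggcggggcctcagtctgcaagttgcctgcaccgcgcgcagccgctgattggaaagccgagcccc

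Of the 48 members, 40 had a RefSeq promoter of 250 bases before to 50 after the start. CCGGAAG or its reverse complement was in 14 of these 40 promoters, against 9.93% of the promoters of 27025 genes. Its matches were uneven among the groups. It was in 9 of 14 promoters of the 19S cap (Psmc1, Psmc2, Psmc6, Psmd2, Psmd4, Psmd6, Psmd11, Psmd12, Psmd13) and in 1 of 11 of the constitutive 20S core, that of Psma6. None of the 3 immunoproteasome promoters held it. TGACNNNGC was in 6 of the 40 promoters, or 15.0%, against 14.0% of all, and in 2 constitutive core promoters, those of Psmb5 and Psmb6 printed above. GAAANNGAA was in 7 of 40, or 17.5%, against 9.76% of all, including that of the interferon-inducible activator Psme1, and in none of the 3 immunoproteasome promoters. These matches are descriptions of letters in a window. No binding was measured here.

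Before the levels are compared, the counting unit has to be considered. The E12.5 table was counted per RefSeq transcript and the stage and P8 tables per gene. Among genes with a stage level of at least 100, the E12.5 level of genes listed with 1 transcript was at a median of 139% of the stage level (7282 genes), whereas it was at 0.975% for genes listed with 2 transcripts (2196 genes) and at 0.394% for those with 3 or more (1970 genes). The proteasome genes followed the same split. The 37 members with 1 transcript above that level were at a median of 111%, and the 8 members with 2 transcripts were at 2.92%. The 19S ubiquitin receptor Psmd4, with 2 transcripts, had an E12.5 level of 0.183 against a stage level of 2224. The alpha subunit Psma3, with 3 transcripts, had 0.869 against 1174. The 9 members with 2 or more transcripts (Psma3, Psma6, Psma7, Psmd2, Psmd4, Psmd10, Psmg4, Psme2, Psmf1) have no usable E12.5 level. Their values are given from the stage and P8 tables, they enter a ratio over E12.5 only where counts over all members are named as such, and the values of single members at E12.5 rest on the 39 members with 1.

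**Figure D1:**
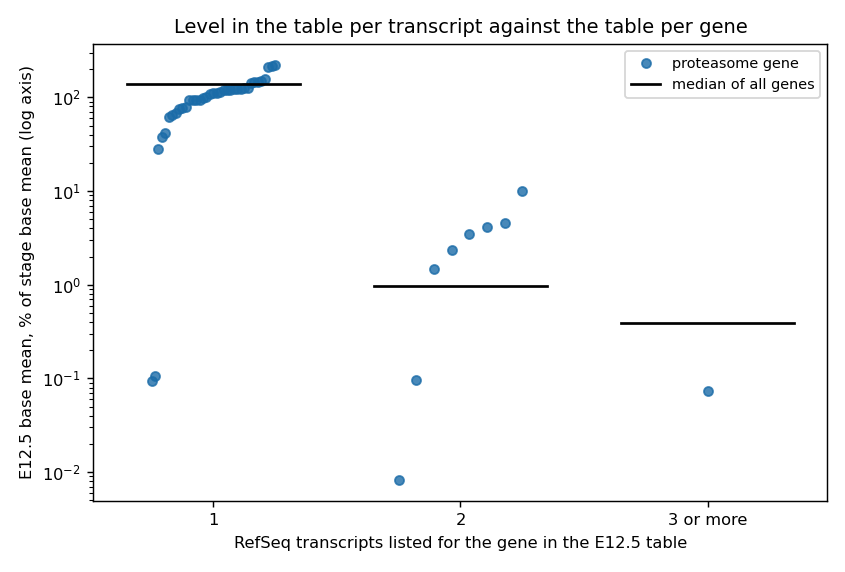
The E12.5 base mean as a percent of the stage base mean (vertical log axis) is plotted for each proteasome gene with a stage level of at least 100, by the number of RefSeq transcripts listed (horizontal axis); points are genes and bars are the medians of all genes, 139%, 0.975% and 0.394%. Members with 2 or more transcripts lie at or under 10.04%, and Psmb8 and Psmb9 are the only members with 1 transcript in that range.

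The identity of the sorted cells was checked against marker genes. The summed level of the 7 MN markers with 1 transcript was 6634 at E12.5 and 224 at P8, and Mnx1 itself went from 3970 to 0.696. Most of the P8 sum was Slc5a7, which went from 282 to 165, a centred log2 ratio of 0.12. The oligodendrocyte list (7 genes with 1 transcript of 12) summed to 441 at E12.5 and 141801 at P8, and of the astrocyte list, S100b went from 10.7 to 74606, while the other 4 genes with 1 transcript summed to 2695 and 1802. The microglial list (11 of 15) summed to 318 and 19049, the endothelial list (6 of 12) to 229 and 1523, and the erythroid list (5 of 7) to 607 and 994. Within the erythroid list Hbb-y fell from 605 to 44.7, while Hba-a2 rose from 0 to 525.5 and Hbb-bs from 0 to 422.6. The 4 neuronal markers with 1 transcript summed to 97033 at E12.5 and 16674 at P8. Most of the P8 sum was Nefl, which went from 12589 to 14103, while Tubb3 fell from 42294 to 329, Stmn2 from 21752 to 311 and Elavl3 from 20397 to 1932. The P8 profile therefore went against its label in most of these markers, though not in Nefl or Slc5a7. Stage, cell mixture, cord region, the presence of Hoxc8 mutants among the E12.5 samples, sorting reporter and counting unit cannot be told apart in any ratio of P8 over E12.5. In such bulk samples, fewer cells of a type and less RNA per cell cannot be told apart either.

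The proteasome genes were abundant in the P8 profile. Of the 48 members, 46 had a P8 level of at least 10, and all 46 were above the median of all genes, between the 61.9th percentile (Psmb9) and the 98.4th (Psmb6). That median is over all 23305 genes, also those under 10, so the minimum level itself favours this placement. The other 2 were the tissue-restricted subunits. Psma8, a core subunit of the testis, had base means of 0.793 at E12.5, 0.518 in the stage table and 1.44 at P8. Psmb11, the core subunit of thymic cortex cells, had 4.52, 3.13 and 0.794. Both were close to 0 in every table.

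Levels of different genes were compared per kb of transcript. In the P8 profile, the median level per kb of RefSeq transcript was 1184 for the 14 constitutive 20S subunits and 820 for the 17 subunits of the 19S cap. In the stage table these medians were 1516 and 1228. The assembly chaperones, which act during building and are not part of the finished particle, had a P8 median of 222 per kb, and the activators had 308. The group order was thus core, cap, activators, chaperones, with overlapping ranges. The level per kb depends on the transcript length assumed, since with the longest annotated transcript the core median was 793 and the cap median 723.

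Within the core, levels per kb of RefSeq transcript ranged at P8 from 605 for the alpha subunit Psma4 and 611 for Psma5 to 4573 for Psmb6, which carries the caspase-like site. Psmb2, a beta subunit without an active site, had 3680 per kb, and Psma7 of the alpha ring had 3214. Psmb5, which carries the chymotrypsin-like site, had 674, and Psmb7, which carries the trypsin-like site, had 1570. Messenger levels of subunits that occupy the core in equal number thus differed widely within 1 table, in these per-length units.

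**Figure D2:**
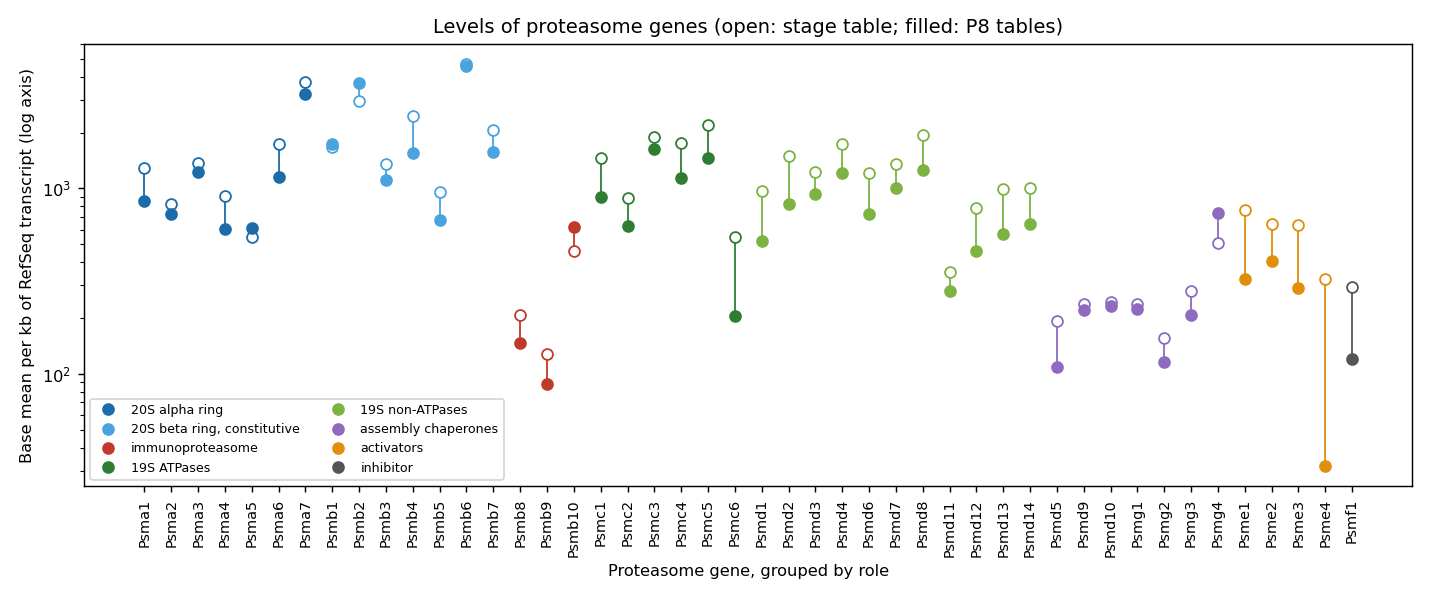
Each of 46 proteasome genes is placed by its base mean per kb of RefSeq transcript (vertical log axis), grouped and coloured by role along the horizontal axis, with open points for the stage table and filled points for the P8 tables. Psmb6 at 4573 per kb was highest and Psme4 at 31.8 per kb was lowest in the P8 tables; Psma8 and Psmb11 are not drawn.

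The change from E12.5 to P8 was described as the log2 ratio of the P8 over the E12.5 base mean, centred on the median of the 9741 genes with at least 10 in both tables. The tables were normalized separately, so a centred ratio is relative to other genes and is not an absolute change. Among the 35 members with 1 transcript at this level, centred on genes with 1 transcript, 11 were higher at P8 (31.4%) against a background of 30.7%, and 2 were higher at E12.5 (5.71%) against 29.7%. Over all 40 members at this level, centred on all genes, 13 were higher at P8 (32.5%) against 33.7%, but Psma6, Psma7, Psmd10, Psmf1 and Psmg4 of these 13 have the undercounted E12.5 level of genes with 2 transcripts. The same 2 of 40 (5.0%) were higher at E12.5 against 31.5%. The share higher at P8 was near the background and is no result about the proteasome. The share higher at E12.5, made up of Psmc6 and Psme4, was far under its background in both of these centrings.

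That second share depended on the scaling. With each table scaled to its own sum in place of centring, which shifts every ratio by -1.32 on the log2 scale, 22 of the 35 members with 1 transcript (62.9%) were higher at E12.5 against 63.8% of genes with 1 transcript, and 2 (5.71%) were higher at P8 against 11%. Over all 40 members these were 22 (55%) against 55.4% and 7 (17.5%) against 20%. Among genes of like length, 5 of 35 (14.3%) were higher at E12.5 against 27.2% and 6 of 35 (17.1%) at P8 against 29.6%. The distance of the proteasome genes from the background toward E12.5 was thus absent with the sums as scale and smaller among genes of like length.

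Differences between members do not depend on that scaling. The 11 constitutive 20S subunits with 1 transcript had a median log2 ratio of 1.24, from -0.031 (Psmb4) to 2.44 (Psma5), centred on all genes. Of these, 7 reached a fold of 2 toward P8. The same 7 did when centred on genes with 1 transcript, as did 30.7% of such genes. The 15 subunits of the 19S cap with 1 transcript had a median of -0.036, from -1.67 (Psmc6) to 0.90 (Psmd11), centred on all genes. None of the 15 reached a fold of 2 toward P8 in that centring, whereas Psmc3 (1.14) and Psmd11 (1.26) did when centred on genes with 1 transcript. Centred on all genes, the genes with 1 transcript had a median of -0.36, with quartiles of -1.67 and 0.97. The core and cap ranges overlapped. The core median exceeded the cap median by 1.275 on the log2 scale over these members with 1 transcript, and by 1.29 when Psma6 and Psma7 with their undercounted E12.5 levels are included. Scaled to the sums and with those 2 included, the core median was -0.060 and the cap median -1.35, so the core was above the cap under both scalings, while its own direction turned.

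Transcript length moved with this difference. Over all genes with 1 transcript, the median log2 ratio fell from 0.60 in the shortest of 4 equal length classes to -1.41 in the longest, and the core subunits were shorter than the cap subunits, with median longest transcripts of 1201 and 1955 nt. Centred within 10 bins of length, the core median was 0.70 and the cap median -0.20, which leaves a difference of 0.90 and puts it under a fold of 2. In this centring Psma2 (1.46), Psma5 (1.47) and Psmb3 (1.49) were the core subunits still past a fold of 2 toward P8, while Psmb5 was at 0.10 and Psmb6 at 0.27, and Psmb4 was at -1.001. What part of the difference belongs to length was not tested.

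The stage and P8 tables, both counted per gene, gave the same order without the transcript problem. The stage table mixes E12.5 with P8 samples, so a higher level at P8 draws the stage over P8 ratio down. Its P8 samples are brachial, while the P8 profile pools 3 regions, so region enters this ratio too. The 2 ratios did not always go together. Csf1r, with a P8 over E12.5 ratio of 7.83, was at -1.17, but H2-D1 (2.23) was at -0.018 and Psmb8 (10.26) at -0.29. The reason was not tested. The stage over P8 log2 ratio, centred on all genes, was below 0 for all 14 constitutive core subunits, with a median of -0.53 and a range of -1.10 (Psmb2) to -0.12 (Psmb4). For the 17 cap subunits the median was -0.16, the range -0.58 (Psmc3) to 0.62 (Psmc6), and 13 were below 0. The quartiles of all 13519 genes were -0.63 and 0.91. The core median thus differed from the cap median by 0.37, in a ratio that P8 samples on both sides draw toward 0. The alpha subunits that the E12.5 table undercounts lay inside the core range, with -0.62 for Psma3, -0.19 for Psma6 and -0.56 for Psma7.

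**Figure D3:**
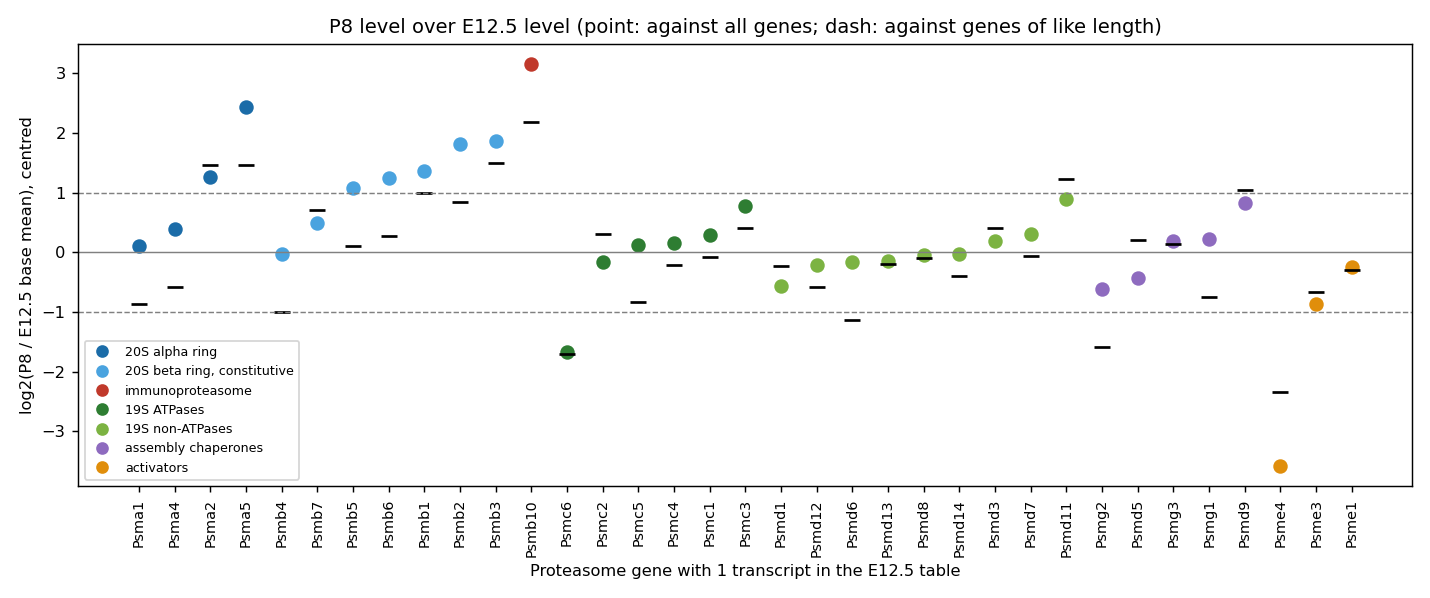
The centred log2 ratio of P8 over E12.5 base mean (vertical axis) is plotted for the 35 proteasome genes with 1 transcript and at least 10 in both tables, by role; points are centred on all genes, dashes on genes of like length, and dashed lines mark a fold of 2. Core subunits lie between -0.031 and 2.44 and cap subunits between -1.67 and 0.90, Psmb10 is highest at 3.15 and Psme4 lowest at -3.58.

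Within the alpha ring, which gates the entry to the core, Psma5 had base means of 259 at E12.5, 679 in the stage table and 757 at P8. Its log2 ratio of 2.44 was above those of the other alpha subunits with 1 transcript: Psma2 went from 1643 to 2116 (log2 ratio 1.26), Psma4 from 1004 to 705 (0.38) and Psma1 from 1779 to 1031 (0.10). The base mean of Psma1 was thus lower at P8, and its centred ratio is above 0 because the median of all genes was lower still.

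Within the constitutive beta ring, Psmb3 had base means of 436 at E12.5, 1038 in the stage table and 849 at P8, and Psmb2 had 1666, 2539 and 3161. Their log2 ratios were 1.85 and 1.82. Psmb1 followed with 1.36. The catalytic subunits were at 1.24 for Psmb6 (2868 to 3649), 1.07 for Psmb5 (535 to 606) and 0.50 for Psmb7 (2395 to 1821). Psmb4, a structural beta subunit, was lowest of the ring at -0.031 (3492 to 1842).

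Among the 19S ATPases, which form the ring that unfolds substrates, 5 of 6 lay within a narrow band, from -0.16 (Psmc2) to 0.77 (Psmc3). Psmc6 stood below them. Its base means were 2709 at E12.5, 1215 in the stage table and 460 at P8, and its log2 ratio was -1.67. The stage over P8 ratio of 0.62 and the ratio against genes of like length, -1.71, had the direction of an embryonic excess as well. Psmc3 showed the opposite placement within the ring, with 2911, 3083 and 2682. Psmc6 was the cap subunit farthest toward E12.5 in each of these 3 ratios. In the P8 profile Psmc6 had 206 per kb of RefSeq transcript, the lowest of the cap, against 1639 for Psmc3, the highest.

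The non-ATPase cap subunits with 1 transcript ranged from -0.57 for Psmd1, a scaffold of the cap base (4421 to 1611), to 0.90 for Psmd11, a lid subunit (792 to 795). Psmd14, the deubiquitinase of the lid, was at -0.036 (1890 to 993). Psmd2, the other large scaffold, and the ubiquitin receptor Psmd4 can be read only in the tables per gene: Psmd2 had 4515 in the stage table and 2462 at P8, and Psmd4 had 2224 and 1536. Their stage over P8 ratios were 0.090 and -0.25, inside the range of the other cap subunits.

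The assembly chaperones of the core and of the cap overlapped in their ratios. Of those acting on the core, Psmg1 was at a log2 ratio of 0.21 (372 to 232), Psmg3 at 0.19 (299 to 184) and Psmg2 at -0.62 (349 to 122). Of those acting on the cap base, Psmd9 was at 0.83 (601 to 576) and Psmd5 at -0.43 (1198 to 480). Psmg4 and Psmd10 had 2 transcripts. Psmg4 had 281 in the stage table and 411 at P8, a stage over P8 ratio of -1.33, the lowest of all members at the least level, and Psmd10, also known as gankyrin, had 347 and 332 (-0.72).

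The activators open the core in place of or beside the cap. Their median of -0.87 over 3 members with 1 transcript was below those of the other groups. The ranges overlapped, since Psme1 (-0.25) was above Psmd1 (-0.57) and Psmg2 (-0.62). Psme4, the large nuclear activator that also acts on acetylated histones, had base means of 4577 at E12.5, 2095 in the stage table and 206 at P8. Its log2 ratio of -3.58 was the lowest of the 35 members. Against genes of like length it was -2.34, and with the sums as scale it was lower than -3.58, since that scaling shifts every ratio down. At E12.5 Psme4 was at the 97.5th percentile of all genes and at P8 at the 69.9th. Psme4 transcripts are long, at 6491 nt, in a range where most genes had low ratios.

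Psme3, a nuclear activator that needs no ubiquitin on its substrates, had 2642 at E12.5, 1683 in the stage table and 777 at P8 (-0.87). Psme1 had 799, 851 and 361 (-0.25). Psme2, which joins Psme1 in the activator induced by interferon, had 510 in the stage table and 323 at P8, a stage over P8 ratio of -0.13 against 0.45 for Psme1. The inhibitor Psmf1 had 1120 and 457, a ratio of 0.51. Thus 4 of these 5 genes, all but Psme2, had stage over P8 ratios above 0, whereas all 14 constitutive core subunits were below 0. A higher embryonic level draws the ratio up, but cord region enters it as well.

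The 3 immunoproteasome subunits had the highest ratios of P8 over E12.5 among the members with 1 transcript and a P8 level of at least 10. Psmb8 had a base mean of 0.361 at E12.5, 336 in the stage table and 239 at P8. Psmb9 had 0.164, 172 and 118. Psmb10 had 170, 599 and 815. The first 2 were thus nearly absent from the E12.5 table and present in both others, while Psmb10 was present in all 3. None of them has more than 1 transcript in the E12.5 table.

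The E12.5 values of Psmb8 and Psmb9 are a handful of reads. Genes with a single read in the E12.5 table take 6 values, between 0.142 and 0.183. This is the pattern of 6 libraries, and their place among the 9 E12.5 samples is not given by the labels. It reads the base mean of Psmb8 as 2 reads and that of Psmb9 as 1 read over all libraries. Their log2 ratios of P8 over E12.5 were 10.26 (95% exact Poisson interval 8.41 to 13.30) and 10.39 (7.91 to 15.69), and these intervals cover counting error only. The ratio of Psmb10 was 3.15, and 2.18 against genes of like length. Of 7282 genes with 1 transcript and a stage level of at least 100, 238 genes, or 3.27%, had an E12.5 level under 1% of their stage level. Psmb8 (0.107%) and Psmb9 (0.0951%) were among these 238. Psmb10 was at 28.4%.

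Each inducible subunit was set against the constitutive subunit it replaces, within a table, so that no scaling between tables enters. Per kb of RefSeq transcript, Psmb8 was at 0.0373% of Psmb5 at E12.5, 21.7% in the stage table and 21.7% at P8. Psmb9 was at 0.00337% of Psmb6 at E12.5, 2.72% in the stage table and 1.92% at P8. Psmb10 was at 6.29%, 22.1% and 39.6% of Psmb7. The constitutive partner was higher in all 9 of these comparisons. Summed, the inducible subunits were at 2.08% of their partners at E12.5 and 12.6% at P8.

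The transcript length assumed for a gene drops out when such a ratio is compared between tables. The ratio of Psmb8 to Psmb5 was 583 times as high at P8 as at E12.5 (95% counting interval 162 to 4816), and that of Psmb9 to Psmb6 was 568 times as high (102 to 22441). The ratio of Psmb10 to Psmb7 was 6.29 times as high, and 2.78 times as high when each gene is set against genes of like length, so the length trend of all genes does enter this comparison. The intervals of Psmb8 and Psmb9 overlapped each other and lay above the value of Psmb10, and they cover counting error only. The stage table, which also holds E12.5 samples, did not show a lower ratio than P8 for these 2 pairs. Per kb of RefSeq transcript, Psmb8 was at 21.7% of Psmb5 in both, and Psmb9 at 2.72% of Psmb6 against 1.92% at P8. The reason was not tested, so the size of the 2 changes rests on the E12.5 table alone. The size of the ratio itself does depend on length: with the longest annotated transcripts, Psmb10 was at 97.2% of Psmb7 at P8, because that of Psmb7 is 2849 nt against 1160 nt in RefSeq. Psmb8 shares 14.7% of its exon bases with the gene model Gm20496, and Psmb9 shares 5.79% with Tap1, so reads in these stretches can belong to either gene.

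**Figure D4:**
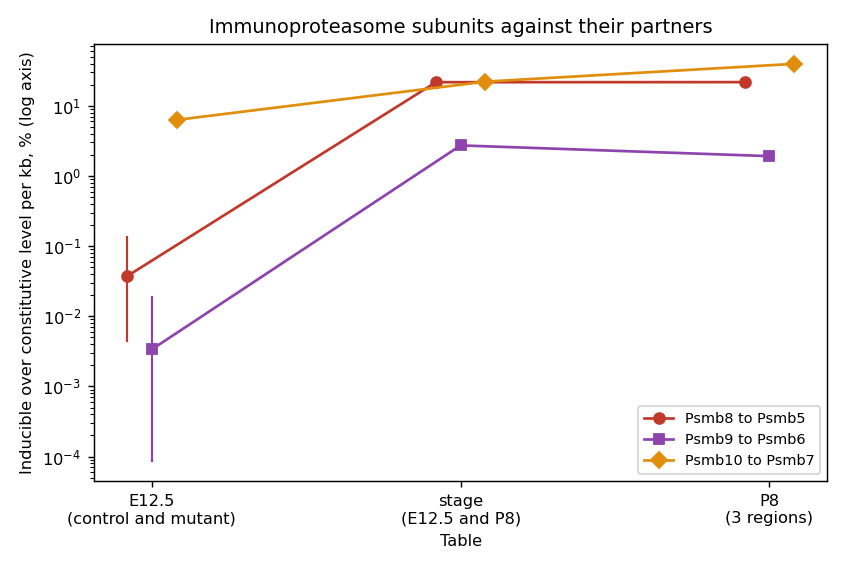
The level of each immunoproteasome subunit as a percent of the constitutive subunit it replaces, per kb of RefSeq transcript, is plotted on a vertical log axis for the E12.5, stage and P8 tables; vertical lines are 95% Poisson counting intervals where the E12.5 level is 1 or 2 reads. Psmb8 and Psmb9 are far below 1% at E12.5 and at 21.7% and 1.92% at P8, whereas Psmb10 goes from 6.29% to 39.6%.

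Microglial, oligodendrocyte and most endothelial markers were higher at P8, as were the inducible subunits, while astrocyte markers with 1 transcript were mixed. All 7 microglial markers with 1 transcript and at least 10 in both tables were higher at P8, with log2 ratios of 5.32 to 7.83. They also were when centred on genes with 1 transcript, where 30.7% of such genes were. None of the 11 microglial markers with 1 transcript was at 0 at E12.5: Csf1r, the receptor that maintains microglia, was at 47.6 at E12.5 and 5824 at P8. Of 5 endothelial markers with 1 transcript and at least 10 in both tables, 4 were higher at P8, also when centred on genes with 1 transcript. The stage over P8 ratios of all 12 endothelial genes were between -1.88 and -0.51. Of 5 astrocyte genes with 1 transcript, 2 were higher at P8, and the median log2 ratio was -0.18. The stage over P8 ratios of all 9 astrocyte genes had a median of -1.30, from -2.09 (Gja1) to 3.19 (Slc1a2). The stage over P8 ratios of Psmb8 (-0.29) and Psmb9 (-0.24) were inside the range of the constitutive core and above the median of the 15 microglial genes (-1.49) and the range of the 12 oligodendrocyte genes (-1.999 to -1.464). Of the microglial list, Tyrobp, Fcer1g, Itgam and Ptprc, singled out after their values were seen, lay between -0.30 and -0.21, and the other 11 between -2.22 and -0.87. Psmb10 was at -1.23. The part of these cells in the levels of the inducible subunits was not tested.

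The genes that act with the immunoproteasome were read in the same way. Of the 11 genes of antigen presentation, 7 had 1 transcript and 6 of these had at least 10 in both tables. Centred on all genes, 4 of these 6 were higher at P8 and 1, the chaperone Calr, at E12.5. The shares of all genes were 33.7% and 31.5%, but they include genes with 2 or more transcripts, which are undercounted at E12.5. Genes with 1 transcript had quartiles of -1.67 and 0.97 in the same centring, the upper one under a fold of 2. Centred on genes with 1 transcript, the same 4 were higher at P8, but Calr (-0.70) was under a fold of 2. B2m, the light chain of class I molecules, went from 94.4 at E12.5 to 2740 at P8 (log2 ratio 5.75), and the class I gene H2-D1 from 795 to 2012 (2.23). The peptide transporter subunit Tap2 went from 5.45 to 225. The calnexin gene Canx and Pdia3, chaperones of the endoplasmic reticulum used by all cells, had P8 levels of 5440 and 4176, and the log2 ratio of Pdia3 was 0.14. Calr went from 13325 to 3428 (-1.07).

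Of the 17 genes of the interferon response, 10 had 1 transcript and can be read at E12.5. Stat2 was at 1000 there and 246 at P8 (log2 ratio -1.13), and Oasl2 at 10.5 and 72.5 (3.68). The other 8 (Isg15, Ifit1, Ifit3, Gbp2, Bst2, Rsad2, Usp18 and Mx1) were between 0 and 7.70 at E12.5 and between 10.6 and 96.9 at P8. The median stage over P8 ratio of all 17 was -0.25, and that of the 11 genes of antigen presentation was -0.31. The values of Psmb8 and Psmb9 were near these medians, but also inside the range of the constitutive core (-1.10 to -0.12). They lay between the quartiles of all genes (-0.63 and 0.91) as well, so this nearness sets them apart from neither. Among the transcription factors of the list, the P8 level was 354 for Irf8, 333 for Irf1 and 246 for Stat2.

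Of 20 partners of the constitutive proteasome, 14 had 1 transcript and at least 10 in both tables. Centred on all genes, 4 of these were higher at P8 and 7 at E12.5, with a median of -0.73. The shares of all genes were 33.7% and 31.5%, which include the undercounted genes with 2 or more transcripts. Genes with 1 transcript had a median of -0.36 and quartiles of -1.67 and 0.97 in that centring. Centred on genes with 1 transcript, Ubqln4 (-0.96), Akirin2 (-0.93) and Ube3c (-0.89) were under a fold of 2. Only Ubqln2, Rad23b, Ecpas and Ddi2 then stayed higher at E12.5, and the same 4 genes were higher at P8. The shares of genes with 1 transcript were 29.7% at E12.5 and 30.7% at P8, so neither count is a result about these partners. Those higher at P8 included parts and makers of the particle. Pomp, the chaperone that matures the core, had base means of 1741, 2766 and 3215 in the 3 tables (1.78), Adrm1, a ubiquitin receptor of the cap, was at 1.55, and the small cap subunit Sem1 was at 1.34. Ngly1, which activates the transcription factor Nfe2l1, was at 1.17. Those higher at E12.5 when centred on all genes were of several kinds. Ubqln2 went from 6199 to 107 (-4.97), Rad23b from 4984 to 341 (-2.98), and Ecpas, an adaptor of the particle, from 2696 to 415 (-1.81). The others were Ddi2 (-1.63), Ubqln4 (-1.32), Akirin2 (-1.30) and Ube3c (-1.25). Ubqln1, with the highest P8 level of the list (3532), and Vcp, the segregase upstream of the proteasome (1652), had stage over P8 ratios of -0.55 and 0.068.

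The ubiquitin genes could hardly be read across the tables, because 4 of 6 have 2 or more transcripts. Uba6, an activating enzyme, had a log2 ratio of -1.34 (723 to 154). In the P8 profile Ubb was at 4147, Uba1, the main activating enzyme, at 3389 and Rps27a at 1172. The stage over P8 ratio of Uba1 was 1.51, and those of Ubb and Rps27a were -0.86 and -0.70.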

How the data were processed

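RNA of sorted MNs from 18 mouse samples was analysed, grouped by stage, region and genotype as labelled. The submitters' processing notes and the study's methods name alignment of unique reads to GRCm38/mm10 with HISAT, counting with featureCounts and comparison with DESeq2; versions were not given in the sources used here. The base mean deposited by the authors is a signal, the mean over a table's samples of read counts divided by size factors. The fold changes, Wald statistics and p-values of the authors' own comparisons were also in the tables and were not used. Neither the Hoxc8 mutant effect nor regional differences are therefore described, and depth per sample is unknown.

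Entrez IDs (93.0% of 27179 genes) and RefSeq transcripts (99.2% of 35729) were matched to symbols of GRCm38.p6. For each symbol the transcript with the highest base mean was taken. Lengths came from GENCODE vM21. Members and lists were chosen with earlier results of these data known. Members named with values were the inducible subunits, their partners, the activators, the inhibitor, group extremes and members past a fold of 2; of other lists, the 4 highest genes at P8 and examples by size of ratio. Some genes that this rule names are not reported here. Alternatives changed the scaling, minimum level, fold, transcript, table and length. The calculation of the centred ratio was checked on simulated levels with known folds. Calculations used pandas 2.3.3 and numpy 2.4.6 under Python 3.11.15, intervals scipy 1.17.1, and plots matplotlib 3.10.9.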

Additional observations from a re-analysis of the deposited data

How the results depend on the processing

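No paired analysis was possible because the tables hold no values per sample, and replicates could not be left out for the same reason. Values of 13 members higher at P8, 2 higher at E12.5, and core and cap medians of 1.26 and -0.036 (difference 1.29) were compared with alternatives, some chosen after seeing the data (those of 1 transcript, like length and RefSeq length). Scaled to the sums, 7 and 22 members were higher, the core median was -0.060, the cap median -1.35, and Psma2 (-0.060), Psmb5 (-0.25) and Psmb6 (-0.077) turned sign. With no minimum level, 6 members were higher at E12.5 and the core median was 0.84. With the stage table as the embryonic level, 3 and 1 members were higher, the core median was 0.53 and the difference 0.37. A fold of 1.5 gave 4 members higher at E12.5, and a fold of 4 gave 7 and 1. Among genes of like length, 6 and 5 members were higher, the core median was 0.70 and the difference 0.90. Relative to the core median, the cap median was -1.29. The lumbar and thoracic tables gave identical values. Other causes of these shifts were not tested.

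Per kb of longest transcript, Psmb8 was at 0.0318%, 18.5% and 18.6% of Psmb5 at E12.5, in the stage table and at P8, Psmb9 at 0.00191%, 1.54% and 1.09% of Psmb6, and Psmb10 at 15.4%, 54.2% and 97.2% of Psmb7. Without length correction these were 0.0675%, 39.3% and 39.4%, 0.00571%, 4.61% and 3.24%, and 7.11%, 24.96% and 44.7%. With RefSeq length, Psmb9 was at 0.00337%, 2.72% and 1.92%, and Psmb10 at 6.29%, 22.1% and 39.6%.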
